A study of Mus musculus with 8 samples.

Results

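Arg1 and Slc7a3 are the genes of arginine breakdown and arginine uptake described here, and both were chosen with their values in this table known. They are 2 of the 712 genes in a deposited table of 42 numbered cell states of the early mouse embryo, and each has 1 value per state, called its level. The states come from 8 libraries of wild-type embryos at 5 stages, from embryonic day 6.5 to day 8.5. Day 6.5 and day 7.0 had 1 library each, and days 7.5, 8.0 and 8.5 had 2 each, with 4 to 10 pooled embryos behind a library. The paired libraries of days 8.0 and 8.5 are marked a and b under 1 replicate number and may come from the same pool, and 1 library titled day 8.5 is described as day 8.0. All embryos arose from B6D2F1 oocytes injected with sperm of B6/CAST F1 males, grew to blastocysts in culture and were carried by CD-1 surrogate females. They were dissociated whole and profiled with droplet-based single-cell RNA sequencing (10x Genomics 3′ chemistry). The table names no library, stage, cell number or depth for a state. A level therefore has no replicate error, no difference between states could be tested over embryos, and what follows is a description. The labels call the tissue whole embryo only, so each state was described by its likeness to a cell type, from marker lists that held neither Arg1 nor Slc7a3. By these lists 37 states took a name and 5 stayed unnamed.

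Arginine is taken up from outside the cell mainly by cationic amino acid transporters, a branch of the SLC7 family of membrane carriers to which Slc7a3 (also called CAT3) belongs. Inside the cell arginase splits arginine into urea and ornithine, and ornithine is the substrate for polyamines and proline. Arg1 encodes the cytosolic arginase, best known from the urea cycle of the liver and from macrophages. The epiblast is the pluripotent tissue that gives rise to the body, and gastrulation turns part of it into mesoderm and endoderm. The mesoderm beside the midline, the paraxial mesoderm, then segments into somites.

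Arg1 lies on the minus strand of chromosome 10 at 24915221 to 24927484 in the GENCODE M21 annotation of GRCm38. It is a protein-coding gene with 3 annotated transcripts, the longest in exon number having 8 exons. No other annotated gene overlaps it, and the nearest coding gene, Med23 on the plus strand, is 1540 bases away. Slc7a3 lies on the minus strand of chromosome X at 101079210 to 101086020. It has 7 annotated transcripts with up to 13 exons and no overlapping gene, and Snx12 is 11766 bases away. The measured genes nearest to the members in the genome did not share their pattern closely. Smlr1, at 600.5 kb from Arg1, had a Pearson correlation with it of -0.17 over the 42 states, and Cited1, at 1161 kb from Slc7a3, one of -0.31.

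Arg1 was highest in somite-like state 18, at a level of 1.06. State 18 was named from the somite genes Tcf15, Meox1, Aldh1a2, Foxc2 and Fst among its 10 leading genes. Unnamed state 6 was next at 0.721, a state whose leading genes held the cardiac genes Myl7, Myl4, Tnni1 and Tnnt2 together with Prrx2, a homeobox gene of mesenchyme. Pharyngeal and anterior paraxial mesoderm-like states 20 and 34 followed at 0.569 and 0.560. Node and notochord-like states 23 and 38 stood at 0.551 and 0.505, close to those mesoderm states. Neural crest-like state 35 had Arg1 at 0.462, gut endoderm-like state 7 at 0.450 and presomitic mesoderm-like state 30 at 0.444. The upper part of the Arg1 order thus held mesoderm, axial midline, crest and endoderm states side by side.

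Intermediate Arg1 levels were found in unnamed states 2 (0.400) and 12 (0.395). State 2 was led by Mesp1, a transcription factor of early mesoderm, and state 12 had the posterior genes Cdx4 and Hoxaas3 among its leading genes. Surface ectoderm-like states 10 and 16 had Arg1 at 0.336 and 0.195. The neural ectoderm-like states spread from 0.0389 in state 1 and 0.0661 in state 24 to 0.180 in state 39 and 0.189 in state 11. Neuromesodermal progenitor-like state 26 stood at 0.188 and state 31 at 0.0636. Neural crest-like state 33 had 0.146, primordial germ cell-like state 27 had 0.121 and heart-like state 21 had 0.117.

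Arg1 was low in blood, vessel and extraembryonic states. Its level was 0.0637 in endothelium and blood progenitor-like state 13 and 0.0496 in state 32, and 0.0299 and 0.0174 in primitive blood-like states 9 and 22. Extraembryonic and amnion mesoderm-like states 15 and 41 had 0.0340 and 0.0521, and unnamed states 5 and 36 had 0.0317 and 0.0159. Visceral endoderm-like states 4, 29 and 40 ranged from 0.0353 to 0.0423, parietal endoderm-like state 14 was at 0.0151 and the trophoblast-like states 0, 25 and 28 ranged from 0.00916 to 0.0150. The lowest 5 values belonged to nascent mesoderm-like state 37 (0.00448) and to epiblast-like states 19 (0.00353), 3 (0.00252), 8 (0.000878) and 17, where Arg1 was listed at 0. The median over all states was 0.0637, and 5 states reached 50% of the peak.

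Slc7a3 was highest in the epiblast-like states, at 0.774 in state 8, 0.581 in state 19, 0.559 in state 17 and 0.318 in state 3. All 4 had the epiblast genes Pou5f1 and Dnmt3b among their leading genes, and state 3 also had the primitive streak genes T and Eomes among its leading genes. Neural ectoderm-like states 1 and 11 followed at 0.269 and 0.193, with neuromesodermal progenitor-like state 26 between them at 0.219. The other 2 neural states were far lower, at 0.0478 in state 39 and 0.0401 in state 24, and so was progenitor-like state 31 at 0.0247. Surface ectoderm-like states 16 and 10 had Slc7a3 at 0.0891 and 0.0856. These 9 states, without states 24, 31 and 39, were the ones above 10% of the Slc7a3 peak.

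Below them Slc7a3 had no second group of higher states. Nascent mesoderm-like state 37 had 0.0619, visceral endoderm-like state 4 had 0.0434, primordial germ cell-like state 27 had 0.0415 and unnamed state 2 had 0.0403. In all, 32 of the 42 states lay below 0.05. The trophoblast-like states 25, 0 and 28 had 0.0322, 0.0239 and 0.0137. Endoderm-like states 7, 29, 14 and 40 had 0.0251, 0.0131, 0.0131 and 0.00305, the last being the lowest of all states. Node and notochord-like states 38 and 23 had 0.0293 and 0.00962. The blood and vessel states 13, 9, 22 and 32 had 0.0259, 0.0233, 0.0163 and 0.00325. Unnamed states 5, 6, 36 and 12 ranged from 0.0123 to 0.0189. Neural crest-like states 33 and 35 had 0.0150 and 0.00591. In the mesoderm-like states beyond state 37 it was low throughout, whether Arg1 was high there or not. Slc7a3 was at 0.0119 in state 18, 0.0173 in state 20, 0.0109 in state 30, 0.00408 in state 34, 0.00949 in state 21, 0.0107 in state 41 and 0.0104 in state 15.

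**Figure D1:**
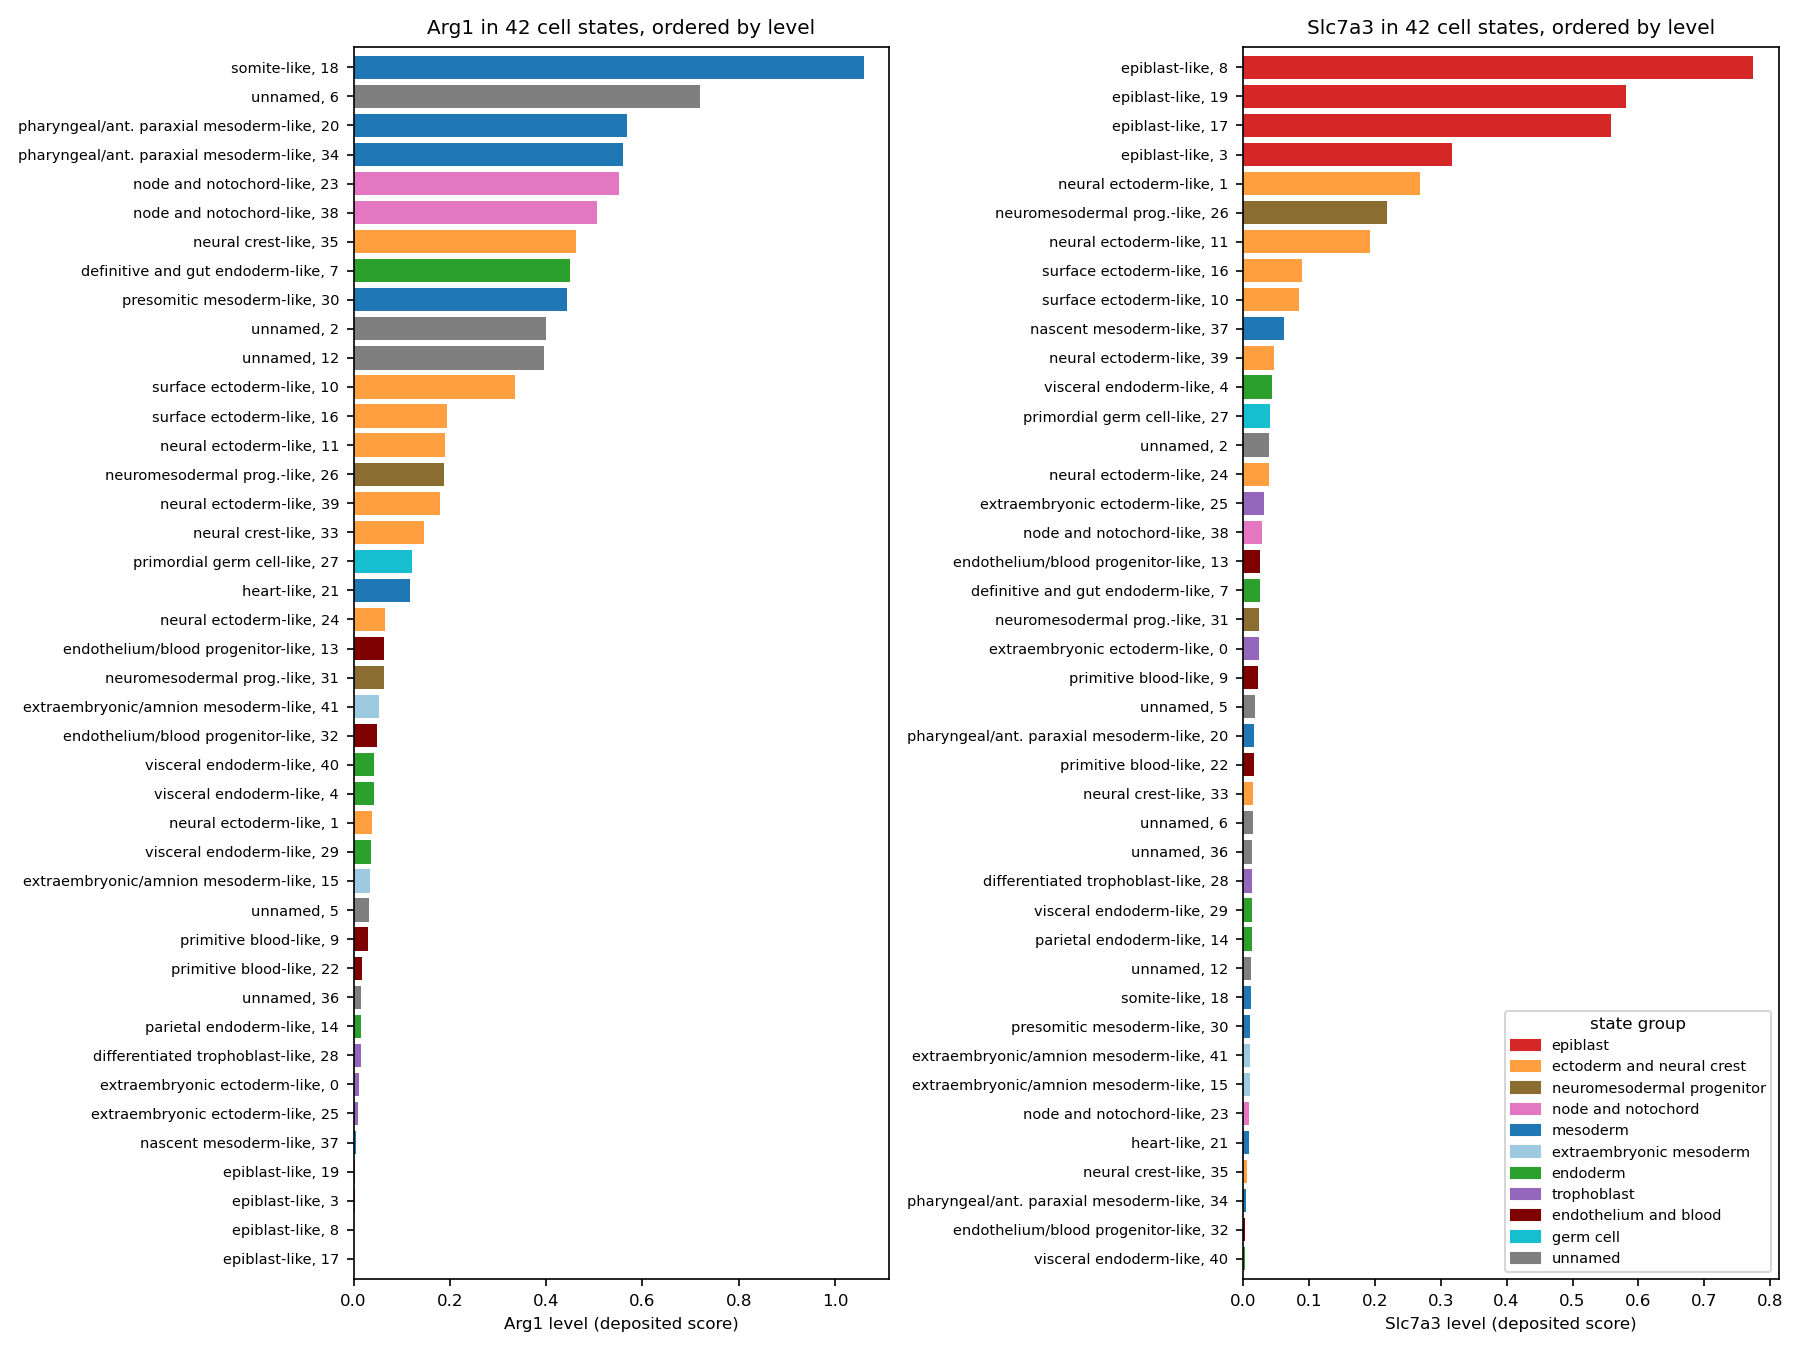
Level of Arg1 (left) and of Slc7a3 (right) in each of the 42 cell states, 1 bar per state, ordered by level and coloured by state group. The horizontal axes give the deposited score. Arg1 peaks at 1.06 in somite-like state 18 and is at its lowest in the epiblast-like states, and Slc7a3 peaks at 0.774 in epiblast-like state 8.

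How far neighbours in these orders can be ranked is limited by the lack of an error. As a yardstick chosen after the values had been seen, the 7 pairs of states whose profiles correlated above 0.9 over genes were compared. Each gene was first centred on its mean over the states and not scaled, so genes with a wide range weigh more. For genes with a mean level of at least 0.2 in a pair, the median difference between such near-identical states was 0.0663 and the 95th percentile was 0.312. The gap of 0.340 between the highest Arg1 state and the next exceeded that percentile, and the gap of 0.193 between the highest Slc7a3 states did not. States 8 and 19, and 8 and 17, were themselves among the 7 pairs, so their Slc7a3 gaps are part of the spread they are set against. Among the other states, the Arg1 levels from state 6 down to state 30 lay within 0.312 of each other, and so did the Slc7a3 levels of states 8, 19 and 17. The order inside those runs was not resolved by this yardstick.

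Neither gene was unusually restricted within this table. The tau index, which is 0 for an even level in all states and approaches 1 for a single state, was 0.835 for Arg1 and 0.905 for Slc7a3, against a median of 0.866 over the 712 genes. Slc7a3 reached 50% of its peak in 3 states and Arg1 in 5, against a median of 4. The Arg1 peak was higher than the peak of 80.9% of genes and the Slc7a3 peak higher than that of 53.8%. These percentages describe the genes in the table, which the authors selected by a procedure not given in the sources used here.

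Set against the epiblast, the mesoderm was uneven in Arg1 and uniform in Slc7a3. The 8 mesoderm-like states (15, 18, 20, 21, 30, 34, 37 and 41) had a mean Arg1 level of 0.355 with a range of 0.00448 to 1.06, and the 4 epiblast-like states a mean of 0.00173 with a range of 0 to 0.00353. All 8 mesoderm-like states were above the highest epiblast-like state, but state 37 (0.00448) barely so. How many of all genes were separated in this way, whatever their difference, is not given here. The difference of the Arg1 means was 0.353. It was 0.202 when states were named only by markers found in a single list, which took states 18 and 34 out of the mesoderm. Counting required means at least 0.5 apart and no overlap between the states of the classes, so Arg1 was not counted, and 0.843% of the 712 genes were counted as higher in mesoderm. Slc7a3 had a mean of 0.0171 in the mesoderm-like states, with a range of 0.00408 to 0.0619, against 0.558 in the epiblast-like states, with a range of 0.318 to 0.774. The difference was -0.54, the classes did not overlap, and 1.97% of genes were counted as lower in mesoderm. The genes had been chosen for this contrast, so nothing is read from either count or from the rank of Slc7a3. A larger deficit in mesoderm than that of Slc7a3 was found for 10 genes. Among them were Pou5f1, Utf1, Dnmt3b, Epcam and Pim2, which are markers of the list that named the epiblast-like states. The deficits of these markers therefore follow in part from the naming. Over all genes the median difference was 0.0272.

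Arg1 as a gene of mesoderm was true of part of the mesoderm only. Arg1 was below 0.06 in the nascent and the extraembryonic mesoderm-like states and 0.117 in heart-like state 21. With the embryonic states alone the difference from the epiblast-like states was 0.457. Among the named states outside the mesoderm-like class, states 23, 38, 7 and 35 had Arg1 levels as high as presomitic mesoderm-like state 30 or higher. They were named node and notochord (23 and 38), gut endoderm (7) and neural crest (35). The class held no node and notochord-like state, so the axial mesoderm was not part of it.

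Along the paraxial mesoderm Arg1 was higher in each state type from progenitor to somite. It was 0.188 and 0.0636 in the neuromesodermal progenitor-like states 26 and 31, 0.444 in presomitic mesoderm-like state 30 and 1.06 in somite-like state 18. Between state 30 and state 31, each other's nearest state over centred genes, Arg1 differed by 0.380, and 20 genes differed more. Between states 18 and 30 the difference in Arg1 was 0.616, and 3 genes had a larger difference in favour of state 18. Of all genes 0.702% were counted as higher in state 18 and 2.39% as lower. Slc7a3 was at 0.0119 and 0.0109 in the same states. At the start of this series it was at 0.219 in state 26 against 0.0247 in state 31, a difference of 0.194 that was not counted, where 0.421% of genes were counted as higher in state 26 and 0.702% as lower. State 26 held Pou5f1 and Hoxb1 among its leading genes, and state 31 the more posterior Hox genes Hoxb9, Hoxc8 and Hoxc9.

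In the early mesoderm, state 37 and unnamed state 2 were each other's nearest state on the same scale, and Mesp1 was the leading gene of both. They differed in Arg1, which was 0.00448 in state 37 and 0.400 in state 2, and 11 genes differed more between them. Aldh1a2, which encodes a retinaldehyde dehydrogenase that makes retinoic acid, was at 0.0376 in state 37 and 0.741 in state 2. Slc7a3 was low in both, at 0.0619 and 0.0403.

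Among the states with cardiac genes, Arg1 was high in unnamed state 6 and low in heart-like state 21. These were each other's nearest state over centred genes, although on the levels as deposited state 6 was nearest to state 20, and state 31 above to state 26. They had Arg1 at 0.721 and 0.117. This difference of 0.603 made Arg1 the single gene of the 712 (0.14%) counted as higher in state 6, while 5.06% of genes were counted as higher in state 21. The pair was picked for description after its Arg1 values had been seen. Slc7a3 was at 0.0148 and 0.00949.

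In the ectoderm Slc7a3 was lower in the neural and surface states than in the epiblast-like states. The 4 neural ectoderm-like states had a mean of 0.138 against 0.558 in the epiblast-like states, a difference of -0.42. This difference was below 0.5 and was not counted, and 1.12% of genes were counted as lower in the neural states and 0.702% as higher. The classes did not overlap, since the highest neural state (state 1, 0.269) lay below the lowest epiblast-like state (state 3, 0.318). How many of all genes did not overlap, whatever their difference, is not given here. The Slc7a3 levels of states 1 and 3 were within the yardstick of 0.312, and state 3 also had primitive streak genes among its leading genes. In the 2 surface ectoderm-like states the mean was 0.0874, a difference of -0.47 from the epiblast-like states that was also not counted, where 1.12% of genes were counted as lower and 2.11% as higher. Arg1 went the other way in these ectoderm states, with means of 0.118 in the neural and 0.265 in the surface ectoderm-like states against 0.00173 in the epiblast-like ones.

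The states with the highest levels of Arg1 and of Slc7a3 were different ones, but at lower levels the genes shared states. Arg1 reached 10% of its peak in 19 states and Slc7a3 in 9, and 4 states did so for both: surface ectoderm-like states 10 and 16, neural ectoderm-like state 11 and neuromesodermal progenitor-like state 26. They make up 21.1% of the Arg1 states and 44.4% of the Slc7a3 states. Arg1 reached 10% of its peak in 45.2% of all states, so its share among the Slc7a3 states was close to its share overall. Neither gene reached that level in 18 states. Over the 42 states the Pearson correlation of the levels was -0.28 and the Spearman correlation -0.33, where the median Pearson correlation of all gene pairs in the table was -0.05. The states share libraries and an unknown depth, and the genes were chosen for opposite patterns, so these correlations are given as description. Because both genes were low in many states, the relation had the form of an L rather than of a line.

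**Figure D2:**
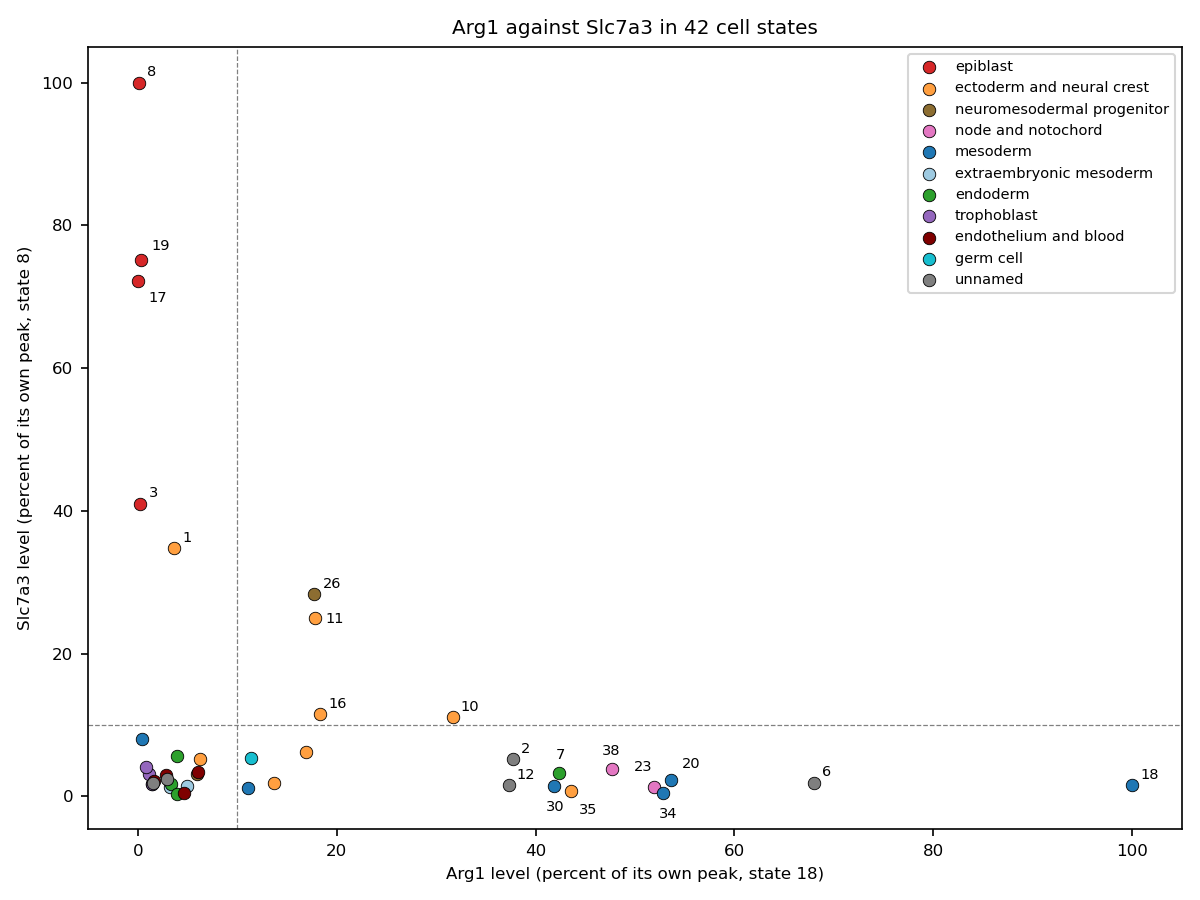
Arg1 level (horizontal) against Slc7a3 level (vertical) in 42 cell states, each as percent of the gene's own peak, 1 point per state coloured by state group and numbered where either gene is high. Dashed lines mark 10% of the peak. Points follow the axes, and 4 states (10, 11, 16 and 26) lie beyond both lines.

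Closely related states had unequal levels of these genes in a few cases, most of them within the yardstick of 0.312. Epiblast-like states 8 and 19 correlated at 0.925 over centred genes, yet Slc7a3 was at 0.774 and 0.581, and 8 genes differed more. States 8 and 17, at 0.913, differed in Slc7a3 by 0.215, and 15 genes differed more. Both of these pairs were among those that gave the yardstick. Neural crest-like states 33 and 35 had Arg1 at 0.146 and 0.462, a gap of 0.316 just past the yardstick, and no gene had a larger difference in favour of state 35. With the limit of 0.5, 0% of genes were counted as higher in state 35 and 0.14% as lower. Neural ectoderm-like states 1 and 11 differed in Arg1 by 0.150 (0.0389 and 0.189) and in Slc7a3 by 0.0763, and 38 and 117 genes differed more. Levels of Xist, a noncoding RNA of X inactivation, are set beside these pairs and were added after they had been seen. It was at 0.911 in state 8 and 0.148 in state 19, at 1.04 in state 33 and 0.176 in state 35, and at 0.75 in state 1 and 0.180 in state 11. It was similar in states 8 and 17, at 0.911 and 0.943. Xist was also nearly equal in the pairs with the larger Arg1 gaps, at 0.912 and 0.920 in states 6 and 21, 1.041 and 1.044 in states 30 and 31, and 0.612 and 0.647 in states 2 and 37. Extraembryonic ectoderm-like states 0 and 25 had Xist at 0.595 and 0.133, with Arg1 and Slc7a3 low in both. Where Arg1 was high and close within a pair, Xist could also differ. It was at 0.723 and 1.10 in states 20 and 34 (Arg1 0.569 and 0.560). In states 23 and 38 it was at 1.02 and 0.521 (Arg1 0.551 and 0.505). The part of Xist in the differences was not tested.

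The named genes most like Arg1 over the 42 states peaked in somite-like, anterior paraxial mesoderm-like or notochord-like states. Meox1, a homeobox gene of somite formation, had the highest Pearson correlation with it (0.833), followed by Aldh1a2 (0.770) and then by the forkhead genes Foxc1 (0.743) and Foxp1 (0.719). Smoc1, which encodes a secreted calcium-binding matrix protein, stood at 0.718, the microfibril gene Mfap2 at 0.70 and Foxc2 at 0.690. Meox1, Aldh1a2, Foxc1 and Foxc2 peaked in state 18 like Arg1, whereas Foxp1 and Mfap2 peaked in state 34 and Smoc1 in state 23. Meox1 differed from Arg1 in gut endoderm-like state 7, where it was at 0.0221, and in state 6, where it was at 0.137. The best correlation of Arg1 was below the median best correlation over all genes (0.887) and higher than that of 31% of genes. Of the 8 genes most like Arg1, of which 7 are named here, 5 were themselves markers in the lists that named the states. The most opposite genes were Bst2 (-0.49), Tmem238 (-0.45) and the pluripotency genes L1td1 (-0.43) and Utf1 (-0.38), none of them a close mirror.

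The genes with the highest Pearson correlations with Slc7a3 peaked with it in epiblast-like states. Pim2, a serine and threonine kinase gene, had a correlation of 0.943 with it, the G protein subunit gene Gng3 one of 0.935 and the PDZ domain gene Pdzd4 one of 0.934. The zinc finger genes Zic5 and Bcl11a followed at 0.823 and 0.796, the DNA methyltransferase gene Dnmt3b at 0.784, the Polycomb gene Phc1 at 0.780 and Tmem238 at 0.752. All 8 peaked in state 8 or state 17, but 2 of them, Pim2 and Dnmt3b, were themselves epiblast markers in the lists that named the states. By rank they followed Slc7a3 less closely, with Spearman correlations from 0.548 for Bcl11a to 0.830 for Pim2, where those of the named genes most like Arg1 ran from 0.574 for Smoc1 to 0.872 for Meox1. Pim2 stayed higher than Slc7a3 did, relative to their peaks, in nascent mesoderm-like state 37, where Pim2 was at 0.312 of a peak of 0.932. The best Pearson correlation of Slc7a3 was higher than the best of 70.2% of genes. Pim2 and Pdzd4 lie on chromosome X like Slc7a3, 2 of 8, where 38 of the 704 genes found in the annotation (5.40%) do. The most opposite genes were Gm26870 (-0.54), Phlda1 (-0.53), Dnajc1 (-0.46) and the growth factor gene Igf2 (-0.45), which peaked in extraembryonic and amnion mesoderm-like state 41. These correlations are across states and do not treat states as replicates.

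**Figure D3:**
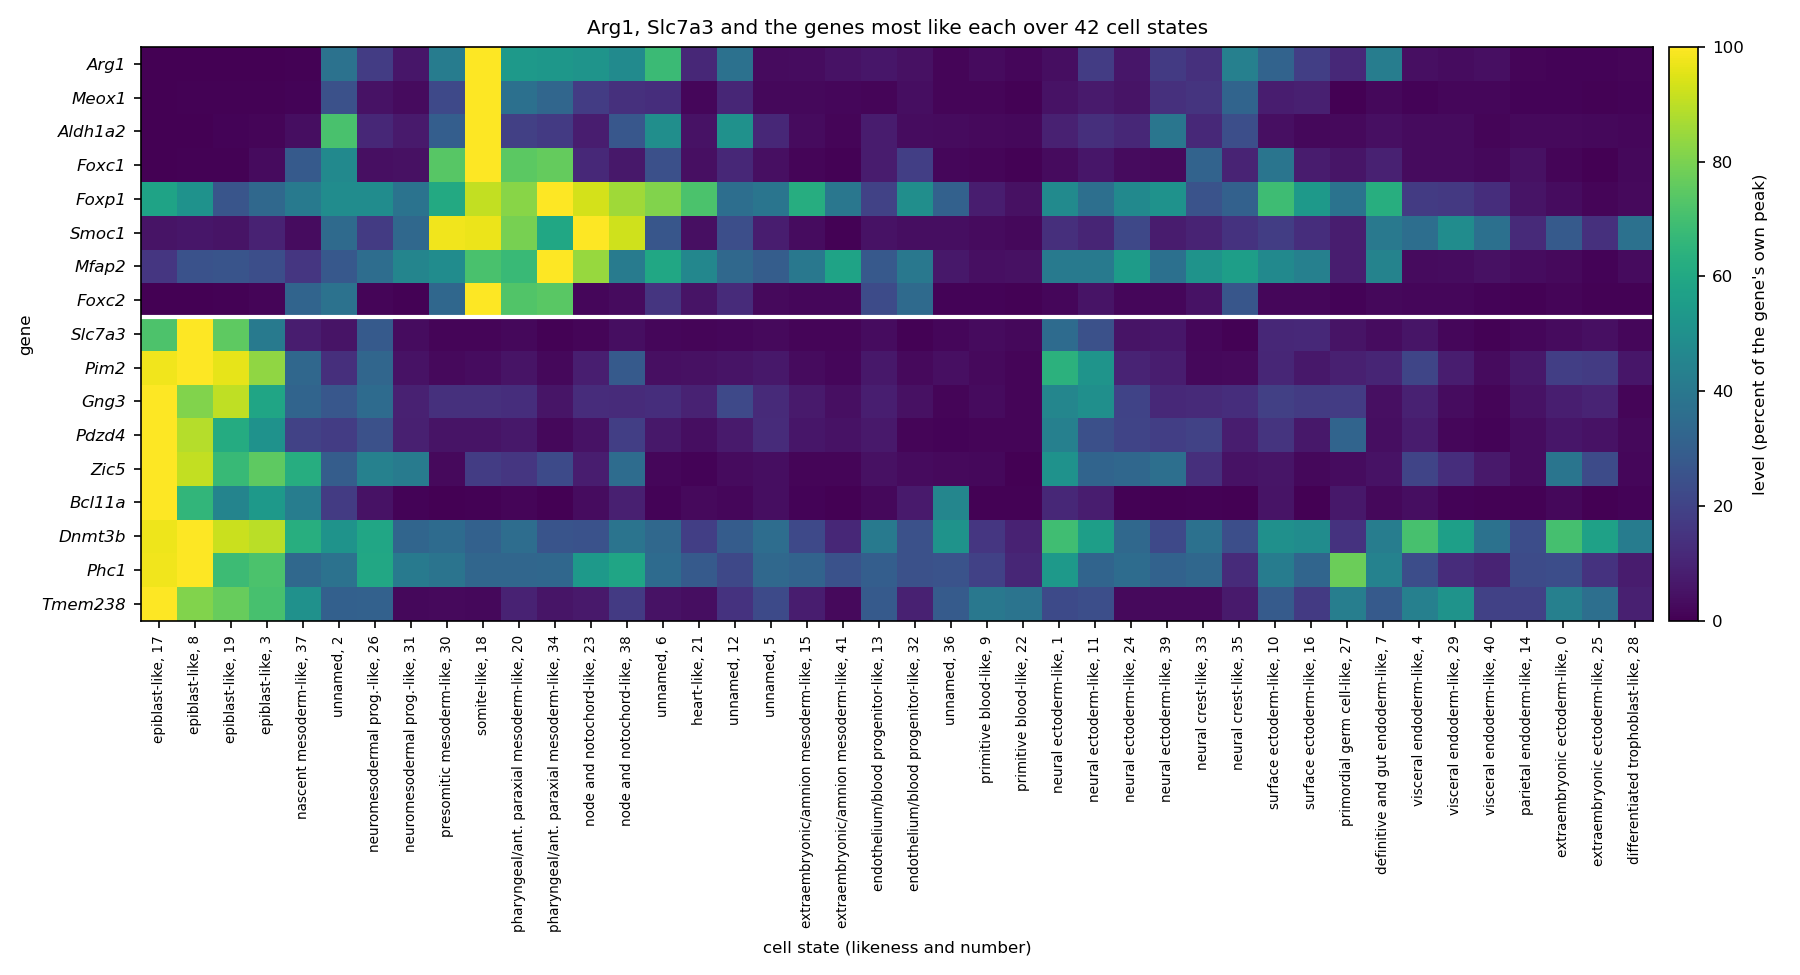
Levels of Arg1 and 7 of the 8 genes most like it (above the white line) and of Slc7a3 and the 8 genes most like it (below) in 42 cell states, each row as percent of the gene's own peak. States are grouped by likeness along the horizontal axis. The Arg1 group is brightest around somite-like state 18 and the Slc7a3 group in epiblast-like states 17, 8, 19 and 3, with weaker signal in neural ectoderm-like states 1 and 11.

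The wider pathway was covered thinly. Of 65 listed genes of arginine and polyamine metabolism, 3 were in the table (Arg1, Ddah1 and Smox), of 47 amino acid transport genes 4 were (Slc7a3, Slc7a7, Slc38a4 and Slc38a5), and of 41 other amino acid genes 2 were (Tdh and Bcat1). The remaining steps of arginine handling were therefore not measured here. None of the 7 genes beside Arg1 and Slc7a3 was counted in either direction between mesoderm-like and epiblast-like states. Over all 712 genes 0.843% were counted as higher and 1.97% as lower, so a lack of counted genes among 7 says little about them. The differences of the 7 genes ran from -0.20 for Tdh to 0.282 for Slc38a4.

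Ddah1, whose enzyme breaks down methylated arginines that inhibit nitric oxide synthase, peaked in extraembryonic ectoderm-like states 0 (0.955) and 25 (0.912), where Arg1 was at 0.0121 and 0.00916 and Slc7a3 at 0.0239 and 0.0322. It was at 0.0951 in somite-like state 18, and its correlation with Arg1 was -0.36. Smox, which encodes a spermine oxidase of polyamine breakdown, peaked in primitive blood-like states 22 (0.487) and 9 (0.485), with notochord-like state 23 next at 0.240. Its median over states was 0.0558.

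Among the transporters, each peaked in a different part of the embryo. Slc7a7, a subunit of an exchanger that carries cationic amino acids, peaked in visceral endoderm-like states 4 (0.756), 29 (0.726) and 40 (0.523). Its mean was 0.196 in the epiblast-like states, with a range of 0.150 to 0.271. In the mesoderm-like states the mean was 0.0374 with a range of 0.00282 to 0.154, so the classes overlapped. Slc38a4, a sodium-coupled amino acid transporter, peaked in unnamed state 5 (0.747) and extraembryonic and amnion mesoderm-like state 41 (0.745), and had a mean of 0.392 in the mesoderm-like states against 0.110 in the epiblast-like states. Slc38a5, a transporter of glutamine and related amino acids, peaked in primitive blood-like states 9 (0.614) and 22 (0.545). Slc7a3 was the one measured transporter with its peak in an epiblast-like state.

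Both other metabolic genes peaked in other states than the pair. Tdh, which encodes threonine dehydrogenase, peaked in visceral endoderm-like states 40 (0.954) and 29 (0.933). Its mean was 0.218 in the epiblast-like states against 0.0206 in the mesoderm-like states. This was the same direction as for Slc7a3, but the difference of -0.20 was not counted. Bcat1, the cytosolic branched-chain aminotransferase gene, was broad, with 25 states at 50% of its peak or more. It was at 0.527 in somite-like state 18 and 0.465 in epiblast-like state 8.

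**Figure D4:**
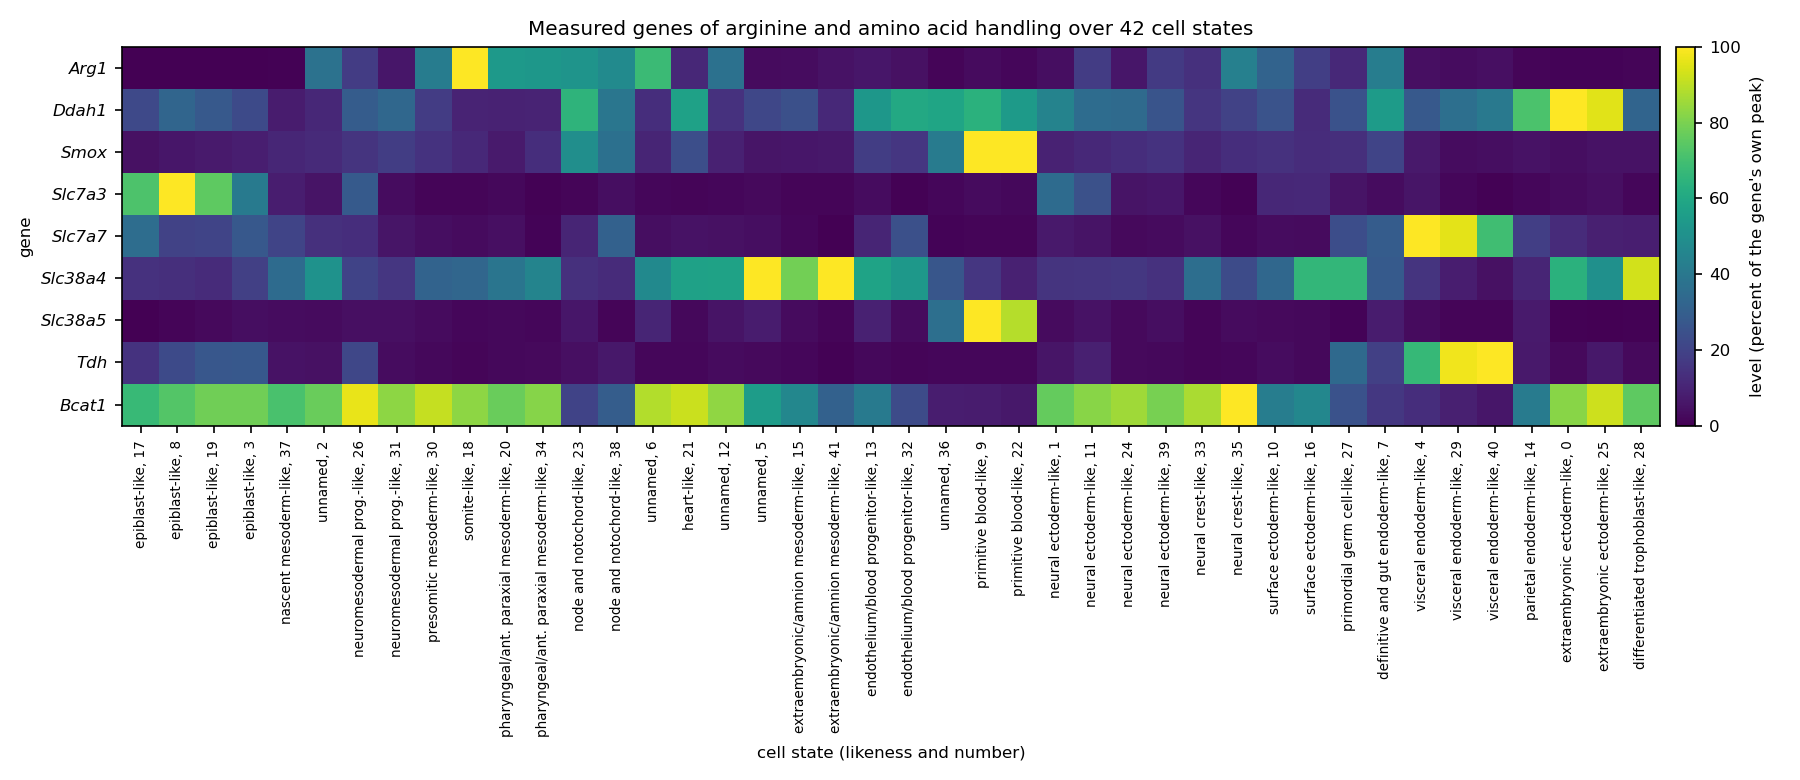
Levels of the 9 measured genes of arginine and amino acid handling in 42 cell states, each row as percent of the gene's own peak, with states grouped by likeness. Arg1 is brightest in state 18, Slc7a3 in state 8, Ddah1 in states 0 and 25, Smox and Slc38a5 in states 9 and 22, Slc7a7 and Tdh in states 4, 29 and 40, and Bcat1 is broad.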

How the data were processed

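Per the file headers, the deposited values are cluster centres, 1 score per gene and cell state. Per the submitters' processing notes reads were processed with Cell Ranger on mm10. Normalisation, clustering, gene selection, doublet removal and the log base, if any, are not given in the sources used here. Levels were therefore compared by subtraction, with no fold change, test, SD or n over embryos, and depth per state is unknown.

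The members and the lists were chosen with earlier results of these data known. A state took the name of the list, of 24 marker lists, with the highest median of gene-standardised levels. The list needed at least 3 markers over 1 SD and as many markers as any other list among the state's 10 leading genes, with a margin of 0.5 in tied cases. Forebrain and hindbrain lists were joined as neural ectoderm, and a state with these as its highest and second list took that name without these requirements. The neural ectoderm-like states 1, 11, 24 and 39 were all named this way. In each the forebrain list scored highest but held fewer of the leading genes than another list. The margin and the joining were settled with the values in view. Named genes were the members, the 8 most and 4 least correlated genes and measured list members, of which 1 gene is not reported here. Gene positions came from GENCODE M21, in which 704 of 712 genes matched. Python 3.11.15 and pandas 2.3.3 were used. The counting rule was run on simulated data whose planted differences passed the limit by design. This checked the code only and not how the rule performs on the spread of these data. Alternatives changed centring, threshold, naming, class summary and correlation.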

Additional observations from a re-analysis of the deposited data

How the results depend on the processing

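No alternative changed a direction, but those for the threshold, the most-like genes and the levels by state could not have done so. Of 29 alternatives, 22 left a result on its side of the threshold or close to its value. The difference in Arg1 between mesoderm-like and epiblast-like states (0.353) was counted at a threshold of 0.25, where 72 genes were counted in all against 20 at 0.5 and 5 at 0.75. It was 0.202 when states were named by markers of a single list, because states 18 and 34 then lost their mesoderm names. The difference in Slc7a3 (-0.54) was not counted at 0.75, nor was the difference in Arg1 between states 18 and 30 (0.616), and the difference in Slc7a3 between neural and epiblast-like states (-0.42) was counted at 0.25. Of the 8 genes most like Arg1, 4 remained by Spearman correlation and 5 without the 2 states highest in Arg1. Of those most like Slc7a3, 2 remained by Spearman correlation and 7 without its 2 highest states. The cause was not tested. With single-list markers 6 states lost their names (10, 11, 16, 18, 23 and 34) and state 36 gained one. The alternatives for states 18 and 30 and for the neural states, and the one adding unnamed states to the mesoderm, were chosen after seeing the data. No paired analysis was possible because the table used here gives no values by library. Low levels may rest on few reads, since neither cells nor depth per state are given.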
